A study of Rattus norvegicus with 6 samples.

Results

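Thick ascending limb and distal convoluted tubule genes were followed in the renal cortex of rats dosed with p-nitroanisole, a nitrobenzene that carries a methoxy group. The set holds 10 genes, 6 of the thick limb (Umod, Slc12a1, Cldn16, Kcnj1, Egf and Casr) and 4 of the distal convoluted tubule (Slc12a3, Pvalb, Trpm6 and Calb1). They were chosen by name for salt, calcium and magnesium transport, and probes were assigned to them by the accession in the scanner files. Of the 15645 genes named this way on the array, 9 belonged to the set, with 17 probes. Trpm6 was matched to no probe and was not analysed here.

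All 6 animals were male Sprague-Dawley rats bought at 5 weeks of age. In the vehicle group, 3 rats received corn oil for 4 weeks. In the treated group, 3 rats received 500 mg/kg of p-nitroanisole daily for 4 weeks. Each animal gave 1 single-colour Agilent array, and the labels call the 3 samples of a group biological replicates. Bulk cortex holds every cell type of the tissue, so fewer cells of a segment and less RNA per cell cannot be told apart.

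The thick ascending limb reabsorbs salt without water. The sodium-potassium-chloride cotransporter of its apical membrane works together with a potassium channel that returns potassium to the lumen, and the voltage this creates drives calcium and magnesium between the cells through claudins. The distal convoluted tubule follows, where a thiazide-sensitive cotransporter takes up sodium and chloride and separate channels and binding proteins carry magnesium and calcium.

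The array files give no probe sequence, so 2 upstream regions are shown to place genes of the set in the genome. Slc12a1, the cotransporter, and Cldn16, the paracellular magnesium and calcium pore, were chosen because their values ran in the same order on the vehicle arrays, and because their windows lie outside the annotated gene. The sequences are from RefSeq, assembly GRCr8, each 240 bases long, and run 5′ to 3′ on the strand of the gene. The Slc12a1 window is chr3:132859340-132859579 on the plus strand and the Cldn16 window is chr11:87814407-87814646 on the minus strand. Capitals mark matches to TATAAA or CCAAT, searched on both strands, which do not overlap each other.
Slc12a1: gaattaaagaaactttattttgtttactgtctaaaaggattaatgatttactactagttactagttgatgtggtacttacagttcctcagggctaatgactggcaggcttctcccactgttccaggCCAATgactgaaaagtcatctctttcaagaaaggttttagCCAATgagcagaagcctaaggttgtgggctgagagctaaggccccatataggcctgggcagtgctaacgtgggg
Cldn16: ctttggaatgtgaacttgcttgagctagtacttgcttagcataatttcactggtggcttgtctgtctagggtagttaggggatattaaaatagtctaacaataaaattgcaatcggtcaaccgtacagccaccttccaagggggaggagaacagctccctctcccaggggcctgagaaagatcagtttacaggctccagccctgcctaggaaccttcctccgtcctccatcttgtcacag
The Slc12a1 window held 2 matches to CCAAT and 0 to TATAAA, and the Cldn16 window held 0 of either. Over 33469 promoter windows of the same length, 33.1% held CCAAT and 12.6% held TATAAA. A match is a description of the letters only.

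The comparison of the groups asks whether transcripts of these segments change in cortex when p-nitroanisole is given for 4 weeks. None of the 8 genes of the set that could be tested passed the test, and none of their 16 tested probes did. On the arrays, the thick limb cotransporter Slc12a1 was 1.08-fold of the vehicle level and uromodulin (Umod) 1.096-fold, with the 95% interval of each reaching from below 1 to 1.40-fold. The thiazide-sensitive cotransporter Slc12a3 was at 0.977-fold (95% interval 0.805 to 1.18). Calb1 had the largest difference of the set at 1.26-fold, and also the widest interval, from 0.826 to 1.91-fold. A gene passed the test at a limma adjusted p under 0.05 over all 32197 rows tested, which 24 rows did (0.0745% of the rows). With so few rows passing, 0 of 8 is near the background. The count of 24 moved with the arrays and settings used. In limma it was 1, 0 and 7 without vehicle replicates 1, 2 and 3 and 0, 5 and 9 without treated replicates 1, 2 and 3, with 3262 and 3718 rows at an unadjusted p under 0.05 where it was 0. It was 85 with normexp background correction and 316 with a trended robust variance.

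The level used is the log2 processed intensity of a probe minus the 75th percentile of its array, so that 0 is as bright as that percentile. Levels of different probes are not compared with each other. Each array had 40877 to 42601 of 61537 probes well above background and no saturated spot, and every tested probe of the set was well above background on all 6 arrays. For the tissue, all 7 proximal tubule markers and all 5 podocyte markers looked up were so throughout at least 1 group. The same held for every marker looked up of principal cells, intercalated cells, renal medulla, red cells and leukocytes. Passing this filter therefore does not set cortex apart.

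Umod encodes uromodulin, the protein that thick limb cells release into the urine in large amounts. Its level was 7.95, 8.08 and 8.48 on vehicle replicates 1, 2 and 3, and 8.34, 8.30 and 8.27 on treated replicates 1, 2 and 3. The treated arrays lay close together, inside the range of the vehicle arrays. The log2 difference, treated minus vehicle, was 0.13 (SE 0.14, 95% interval -0.22 to 0.49, limma adjusted p = 0.715, n = 3 per group). The second Umod probe gave 0.14 (SE 0.15), and with quantile scaling the first gave -0.0225. The value rested on which vehicle arrays entered, at 0.0218 without vehicle replicate 1, 0.0867 without vehicle replicate 2 and 0.29 without vehicle replicate 3.

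Slc12a1 encodes the cotransporter that loop diuretics block. Its level was 4.05, 4.45 and 4.61 on the vehicle arrays and 4.59, 4.40 and 4.44 on the treated arrays. Vehicle replicate 1 was again the lowest of the 6 arrays and vehicle replicate 3 the highest. The log2 difference was 0.10 (SE 0.16, 95% interval -0.28 to 0.49, limma adjusted p = 0.792). Without vehicle replicate 1 it was -0.0561 (SE 0.10).

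Kcnj1 encodes the ROMK channel, which returns potassium to the lumen. It read 0.68, 0.87 and 0.84 in vehicle rats and 0.65, 0.57 and 0.75 in treated rats. The groups overlapped only through vehicle replicate 1 and treated replicate 3. The log2 difference was -0.14 (SE 0.09, 95% interval -0.35 to 0.07, limma adjusted p = 0.527), and the second probe gave -0.16 (SE 0.11).

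Cldn16, needed for the passage of magnesium and calcium between thick limb cells, varied most among the vehicle rats of the 6 thick limb genes. Its level was -1.90, -1.35 and -1.07 on the vehicle arrays and -1.22, -1.22 and -1.25 on the treated arrays. The vehicle range of 0.83 stood against a treated range of 0.03. The log2 difference of 0.21 (SE 0.21, 95% interval -0.30 to 0.72, limma adjusted p = 0.688) became -0.0204 without vehicle replicate 1 and 0.39 without vehicle replicate 3. Its second probe gave 0.07 (SE 0.18).

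Casr encodes the calcium-sensing receptor, which lowers calcium reabsorption in the thick limb when blood calcium is high. The Casr level was 3.70, 4.01 and 4.03 in the vehicle group and 3.81, 3.71 and 3.54 in the treated group. All 3 treated arrays lay below vehicle replicates 2 and 3, and vehicle replicate 1 lay among them. The log2 difference was -0.23 (SE 0.12, 95% interval -0.53 to 0.07, limma adjusted p = 0.470), the lowest adjusted p among the genes of the set. The second probe gave the same difference of -0.23 with a wider error (SE 0.22).

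Egf encodes the precursor of epidermal growth factor, which the kidney makes in the distal nephron and which stimulates magnesium uptake there. Its level was 4.92, 5.31 and 5.13 with vehicle and 5.20, 5.12 and 5.39 with treatment. Vehicle replicate 1 was the lowest array and treated replicate 3 the highest. The difference was 0.12 on the log2 scale (SE 0.13, 95% interval -0.20 to 0.43, limma adjusted p = 0.717), while the second Egf probe gave -0.03 (SE 0.12). It was 0.0159 without vehicle replicate 1, 0.21 without vehicle replicate 2, 0.17 without treated replicate 2 and 0.0382 without treated replicate 3.

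In the distal convoluted tubule, Slc12a3 encodes the cotransporter that thiazides block. Its level was 4.30, 4.46 and 4.31 on the vehicle arrays and 4.19, 4.25 and 4.54 on the treated arrays. Treated replicates 1 and 2 lay below every vehicle array and treated replicate 3, on another slide than the other 5 arrays, lay above them. The log2 difference was -0.03 (SE 0.11, 95% interval -0.31 to 0.24, limma adjusted p = 0.913), and -0.14 within the first slide. It was 0.18 within slide row 1, where treated replicate 3 on the second slide was set against the vehicle arrays on the first. The other Slc12a3 probes gave -0.11 (SE 0.10) and 0.13 (SE 0.11).

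Calb1 encodes calbindin-D28K, which carries calcium across distal cells, and had 1 probe. Its level was 2.34, 2.93 and 2.09 with vehicle and 2.97, 2.47 and 2.91 with treatment. Replicate 3 was the lowest vehicle array here, whereas replicate 1 was the lowest for all 6 thick limb genes. The log2 difference was 0.33 (SE 0.25, 95% interval -0.28 to 0.94, limma adjusted p = 0.592), 0.15 without vehicle replicate 3 and 0.57 without vehicle replicate 2.

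Pvalb encodes parvalbumin, a calcium-binding protein that marks the early distal convoluted tubule. Its only probe was not well above background on any of the 6 arrays and was not tested. The readings lay between -7.96 and -6.51, while the lowest level of a probe well above background was -5.98 to -5.49 depending on the array. This marker was therefore not measured in either group, and the distal convoluted tubule was represented by Slc12a3 and Calb1.

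**Figure D1:**
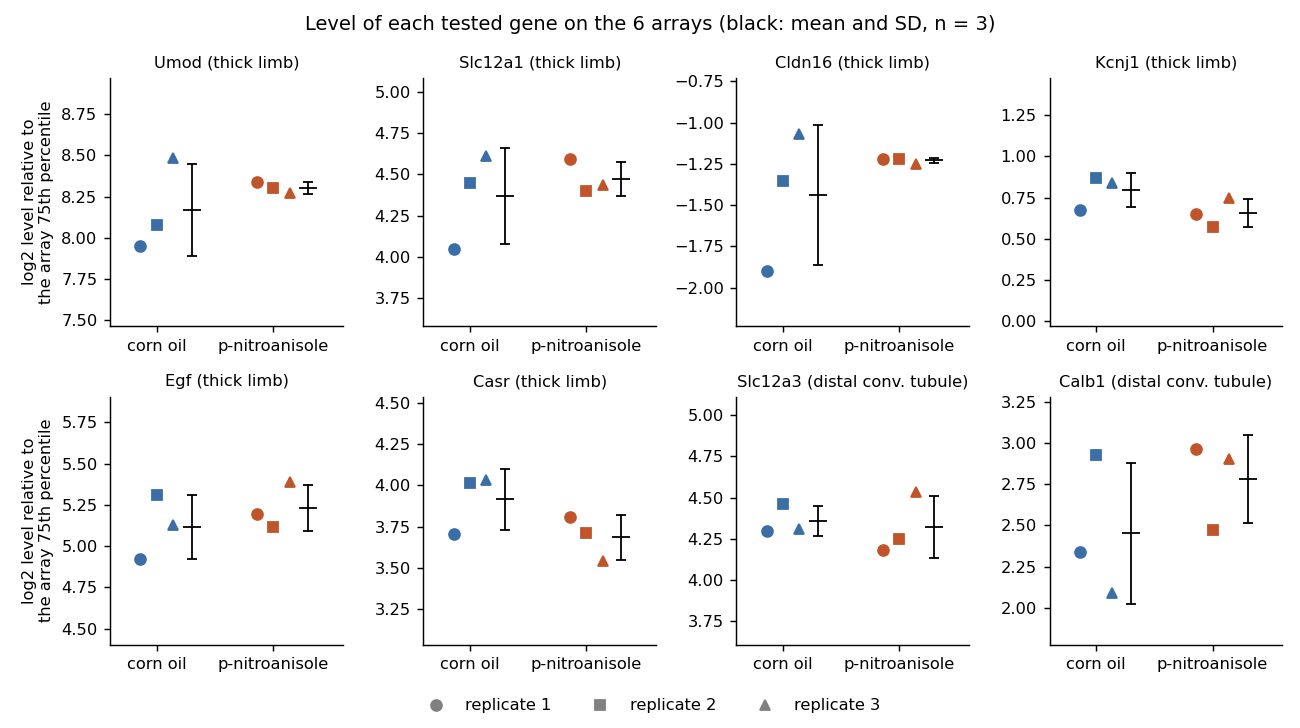
Log2 level relative to the array's 75th percentile (y axis, spanning 1.5 log2 units in each panel) of the 8 tested genes on the 3 corn oil and 3 p-nitroanisole arrays, with symbols for the replicate number and black marks for mean and SD (n = 3). The groups overlap in every panel, and corn oil replicate 1 is the lowest corn oil array for every gene but Calb1.

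The probes of a gene gave similar differences. Of the 7 genes with more than 1 tested probe, 5 had the same sign on all of them, and in Egf and Slc12a3 the signs differed, with values from -0.11 to 0.13. The unadjusted p of the 16 probes was 0.110 or more, whereas 13.4% of all rows had an unadjusted p under 0.05, and their adjusted p lay between 0.470 and 0.930. The intervals bound the size of change that these arrays leave possible: over the 16 probes they ran from -0.77 (the second probe of Casr) to 0.94 (Calb1) on the log2 scale.

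**Figure D2:**
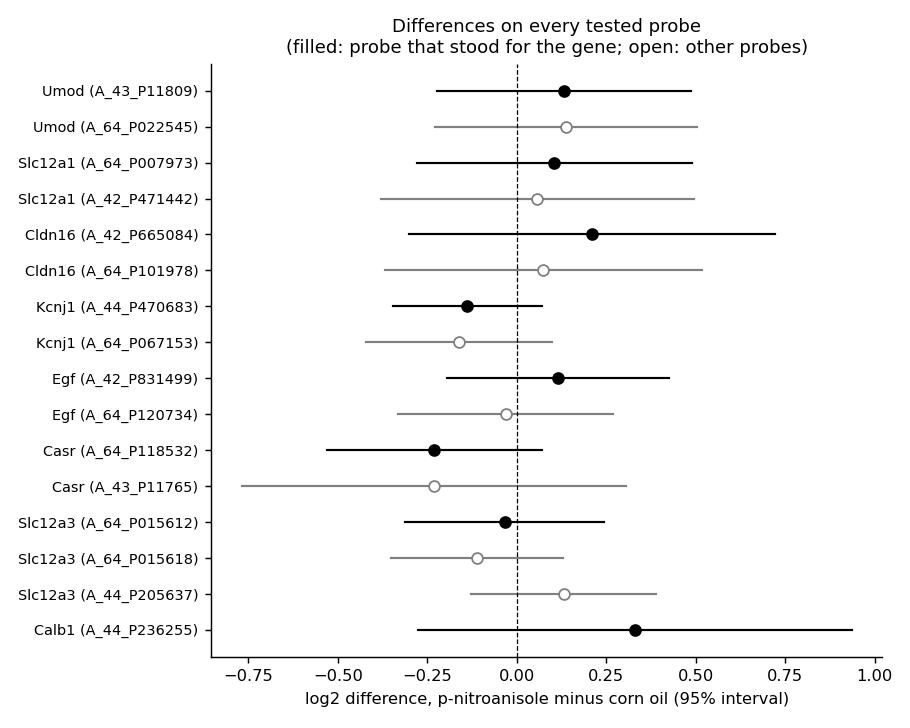
Log2 difference, p-nitroanisole minus corn oil (x axis), with its 95% interval for the 16 tested probes, filled for the probe that stood for the gene and open for other probes. Every interval includes 0, and the Calb1 and Cldn16 intervals reach furthest above it, to 0.94 and 0.72.

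The groups overlapped in all 8 genes, while they did not overlap in 22.2% of all rows. The treated mean was higher in 5 genes and lower in 3, against 52.4% higher over all rows. The 6 thick limb genes had a median log2 difference of 0.11, with 4 higher and 2 lower, and all rows had a median of 0.01. Without vehicle replicate 1 the thick limb median was -0.0382.

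That array was low among the vehicle arrays for most of this set, though not always the furthest from their mean. Umod deviated by -0.22 on it and by 0.31 on vehicle replicate 3. Vehicle replicate 1 was the lowest vehicle array in 7 of the 8 tested genes and in 15 of their 16 tested probes, whereas over all rows it was the lowest in 32.9%. The probes of 1 gene share their target, so the second count adds little to the first. Relative to the vehicle mean, the 6 thick limb genes lay between -0.46 (Cldn16) and -0.12 (Kcnj1) on it, with a median of -0.22, against 0.08 and 0.18 on vehicle replicates 2 and 3. The treated arrays had medians of 0.12, 0.01 and 0.08. The SD among vehicle arrays had a median of 0.24 over the 6 genes, against 0.11 over all rows, and among treated arrays 0.09 against 0.13.

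Markers of other parts of the kidney are given beside this spread. The other thick limb markers (Ptger3, Ppp1r1a, Irx1, Irx2 and Tmem72) had a median deviation of -0.25 on vehicle replicate 1, with all 5 lowest there among the vehicle arrays. The 5 renal medulla markers (Slc14a2, Slc6a12, Slc5a3, Akr1b1 and Aqp4) had a median of -0.21, also with all 5 lowest there. Lower medians there were not limited to those lists. Red cell markers had a median of -0.20 (5 of 6 lowest there), leukocyte markers -0.12 (4 of 6) and principal cell markers -0.09 (4 of 6). Intercalated cell and podocyte markers both had medians of -0.02 (3 of 6 and 2 of 5), and the 7 proximal tubule markers 0.02 (2 of 7). Not all thick limb genes were as low there. Genes of its salt exit and sodium pump had a median of -0.08 (6 of 8) and its tight junction genes -0.02 (2 of 6). Genes of distal tubule salt and potassium control had -0.05 (4 of 9), calcium genes 0.05 (1 of 8) and magnesium genes 0.15 (1 of 8). Between the groups, the medulla list had a median difference of -0.01 (1 of 5 higher) and the proximal list 0.06 (5 of 7 higher). The part of tissue composition or blood cell RNA in the spread of the thick limb genes was not tested.

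**Figure D3:**
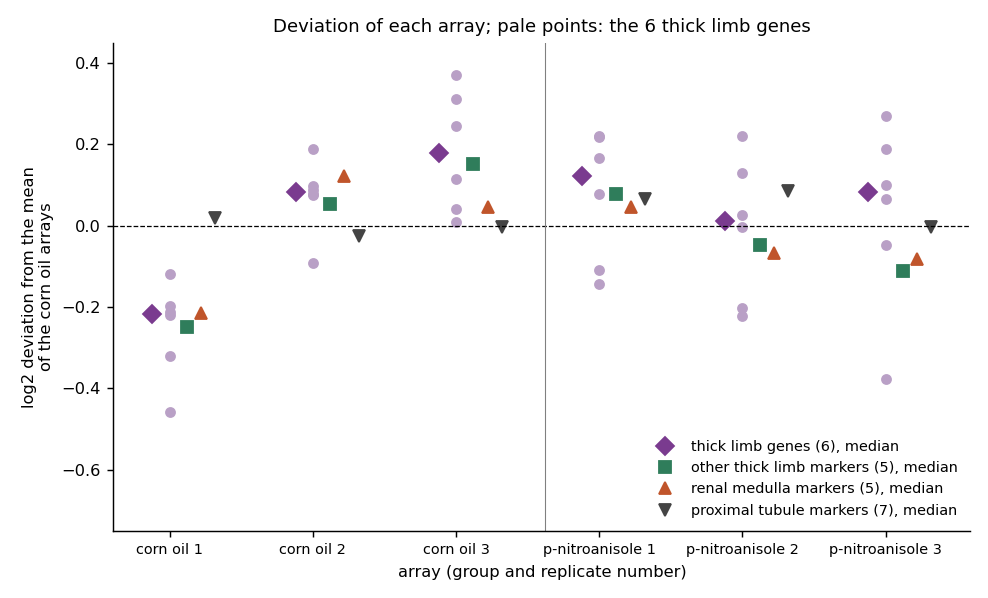
Log2 deviation from the mean of the 3 corn oil arrays (y axis) on each array (x axis), as pale points for the 6 thick limb genes and as larger symbols for list medians. Other lists, among them the tight junction and salt exit genes of the thick limb, are not drawn. Corn oil replicate 1 has medians of -0.22 for the thick limb genes, -0.25 for other thick limb markers and -0.21 for medulla markers, against 0.02 for proximal tubule markers.

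Other genes of the same transport pathways were taken from 6 lists. Of 48 genes, 46 were on the array and 44 were tested, and 0 passed limma's test over all rows (6 at an unadjusted p under 0.05). Over all rows 0.0745% passed and 13.4% had such an unadjusted p, so both counts were near the background. They split into 21 higher and 23 lower with a median log2 difference of -0.02, and the groups did not overlap in 11 of the 44, against 22.2% of all rows.

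Among genes of salt exit and the sodium pump of the thick limb, 4 of 8 were higher, with a median of 0.04. Fxyd2, the regulatory gamma subunit of the sodium pump, had levels of 7.18, 7.33 and 7.29 with vehicle and 7.49, 7.52 and 7.52 with treatment. All treated arrays lay above all vehicle arrays. The log2 difference was 0.24 (SE 0.07, limma adjusted p = 0.248), and 0.20 (SE 0.06) on its second probe. Kcnma1, a large-conductance potassium channel, differed by 0.25 (SE 0.31, limma adjusted p = 0.748) on the probe that stood for it. There treated replicate 3 was at -1.16 against -2.28 to -2.10 on the other 5 arrays, and the difference was -0.12 without it. The second Kcnma1 probe gave 0.51 (SE 0.26), with the groups overlapping.

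Tight junction genes split into 3 higher and 3 lower of 6, with a median of 0.00 (0.0004). Cldn19, the partner of Cldn16 in the pore for divalent ions, had the largest difference below 0 among the 6 lists. Its level was 2.48, 2.43 and 2.64 on the vehicle arrays and 2.25, 2.02 and 1.83 on the treated arrays, with no overlap. The treated level was 0.715-fold of the vehicle level (log2 difference -0.48, SE 0.12, 95% interval -0.79 to -0.18, limma adjusted p = 0.219), so it did not pass the test over all rows. Its other probes gave -0.41 (SE 0.17), with the groups overlapping, and -0.40 (SE 0.14), without overlap. Cldn14, which blocks that pore, differed by 0.21 (SE 0.19, limma adjusted p = 0.665). Its second probe, well above background on 1 of 3 vehicle arrays and on all 3 treated arrays, gave 1.00 (SE 0.57).

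The other thick limb markers had 2 of 5 higher and a median of -0.05, with Ppp1r1a at 0.22 (SE 0.17, limma adjusted p = 0.598) and Tmem72 at -0.10 (SE 0.11, limma adjusted p = 0.709). The other Tmem72 probes gave -0.25 (SE 0.08, limma adjusted p = 0.262) and -0.42 (SE 0.14, limma adjusted p = 0.310), both without overlap between the groups. Genes that set the activity of the distal cotransporter and its basolateral potassium channel had 4 of 9 higher and a median of -0.02. Klhl3 and Emx1, also on that list, were matched to no probe and were not analysed here. Cab39l, a scaffold of the kinases that activate both cotransporters, had no overlap between groups (1.45, 1.36 and 1.52 against 1.66, 1.80 and 1.63), with a log2 difference of 0.25 (SE 0.08, limma adjusted p = 0.285). Kcnj10, the basolateral channel, differed by -0.18 (SE 0.24, limma adjusted p = 0.773). Its probe was not well above background on treated replicate 1, at -5.73 against a lowest such level of -5.67 on that array.

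Magnesium genes had 5 of 8 higher and a median of 0.05. Slc41a1, a magnesium carrier, differed by -0.28 (SE 0.15, limma adjusted p = 0.473) on the probe that stood for it, by 0.21 (SE 0.22) on a second and by -0.17 (SE 0.15) on the remaining probe. Slc41a3 differed by 0.21 (SE 0.19, limma adjusted p = 0.659).

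Calcium genes had 3 of 8 higher and a median of -0.09. Vdr, the vitamin D receptor, had the largest difference of all 44 genes. Its level was 0.39, 0.49 and 0.08 on the vehicle arrays and 1.21, 0.80 and 1.103 on the treated arrays, with no overlap. Treated rats were at 1.64-fold of the vehicle level (log2 difference 0.72, SE 0.15, 95% interval 0.34 to 1.09, limma adjusted p = 0.170), and the second probe gave 0.76 (SE 0.14, limma adjusted p = 0.130). S100g, the gene of calbindin-D9K, a calcium carrier that responds to vitamin D, differed by 0.31 (SE 0.20, limma adjusted p = 0.543), with vehicle replicate 1 above every treated array.

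**Figure D4:**
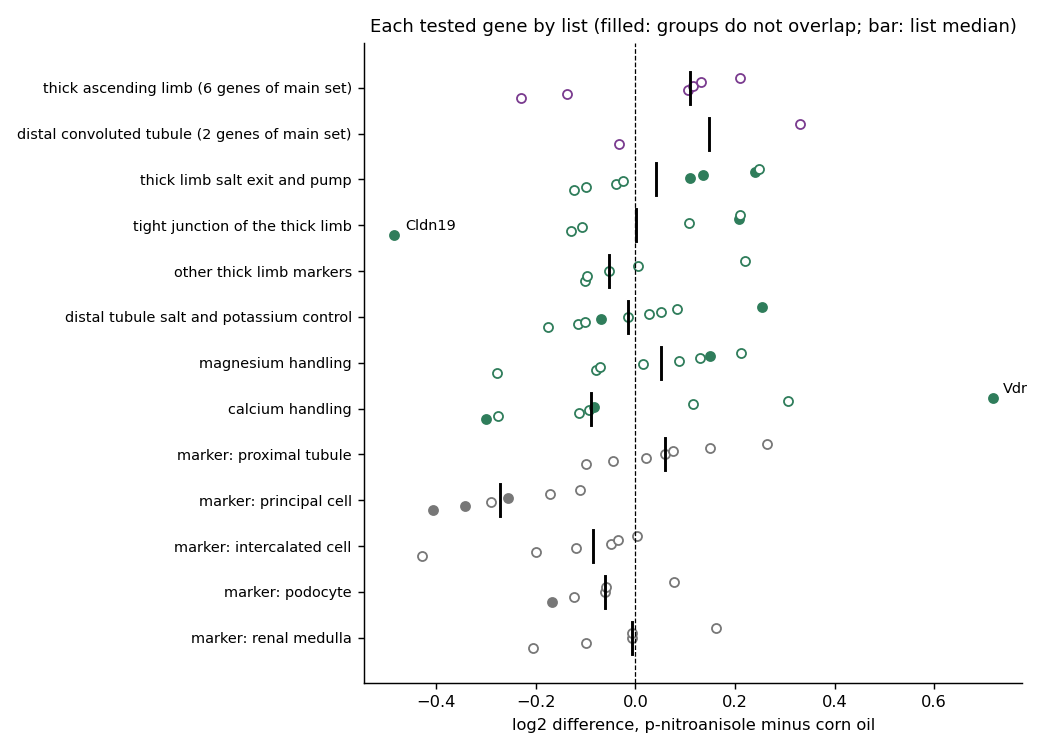
Log2 difference, p-nitroanisole minus corn oil (x axis), of each tested gene in the 8 tubule lists and in markers of 5 other kidney cell types or regions, filled where the groups did not overlap, with a bar at each list's median. No gene shown passed the adjusted test. Cldn19 at -0.48 and Vdr at 0.72 lie furthest from 0, and all 6 principal cell markers lie below 0. Blood cell lists are not drawn.

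The neighbouring segments were measured on the same arrays. The 6 principal cell markers were all lower, with a median of -0.27 and 3 without overlap (22.2% of all rows had none), Avpr2 at -0.41 (SE 0.06, limma adjusted p = 0.117) and Scnn1b at -0.34 (SE 0.13, limma adjusted p = 0.333). Intercalated cell markers had 5 of 6 lower and a median of -0.08, and podocyte markers 4 of 5 lower and a median of -0.06. Whether thick limb and principal cell genes differ in their response was not tested. Red cell markers were higher in 6 of 6 (median 1.95, with Alas2, Hba-a3 and Hbb-b1 passing), including Alas2 at 1.91 (SE 0.14, limma adjusted p = 0.0403). Of 6 leukocyte markers 4 were lower (median -0.20), and S100a8 passed at 1.78 (SE 0.16, limma adjusted p = 0.0453). These calls depended on the processing. Of 18 alternatives, Alas2 lost its call in 10, Hba-a3 in 12, Hbb-b1 in 14 and S100a8 in 12, each of them whenever any 1 array was left out and with the replicate block (limma adjusted p = 0.202 for all 4). The differences stayed above 0 throughout, from 1.80 to 2.09 for Alas2 and from 1.31 to 1.95 for S100a8. The part of blood cell RNA in the tubule values was not tested.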

How the data were processed

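Per the file headers, the deposited intensities came from Feature Extraction 10.7.1.1 by Agilent (10.7 in the submitters' processing notes), with background subtraction, spatial detrending and no scaling across arrays. In the deposited series matrix the same intensities appear as a linear ratio to 1 constant per array. Its column medians were 0.105 to 0.111, and the constant was constant over probes to a CV of 0.0023%, which leaves no centring per gene. A 1-colour table has no ratio direction.

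Control spots (1439) and outlier-flagged spots (0 to 4 per array, none of the set) were left out. Intensities were floored at 1, taken to log2 and reduced by each array's 75th percentile. Accessions named 28206 of 61537 probes through RefSeq (GRCr8). Testing required a probe to be well above background on each of the 3 arrays of 1 group or both (41219 probes), and the tested probe with the highest mean stood for its gene, giving 32197 rows. The group difference was fitted in limma (version 3.58.1, R version 4.3.3; lmFit, eBayes, two-sided, Benjamini-Hochberg over all rows), a procedure also tested on simulated data. The number of arrays, 3 per group, limits precision.

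The genes of the set and the lists were chosen with earlier results of these data known, so lists are described by counts and medians. Named genes are the set and, per list, the genes passing or otherwise the 2 with the largest differences. Treated replicate 3 was on a second slide, so a slide term leaves the fit within slide 1. On that slide the vehicle arrays were in row 1 and treated replicates 1 and 2 in row 2. Treated replicate 3 was in row 1 of the second slide. Group and row therefore cannot be told apart within slide 1, nor group and slide within row 1. The labels do not say that the replicate numbers pair animals, so the numbers were not taken as pairs. Same-numbered arrays of the 2 groups had correlations of deviations of -0.009, 0.04 and -0.01. Arrays of different number had -0.068 to 0.065, and such values cannot settle whether animals were paired.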

Additional observations from a re-analysis of the deposited data

How the results depend on the processing

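Under 18 alternatives (other scaling, background correction, series matrix values, filters on dim probes, treatment of several probes, variance model, slide, row of the slide, replicate block, arrays left out) and with a threshold of 0.01, 0 genes of the set and 0 of the 44 other tubule genes passed. The normexp correction used median spot signals and was chosen after the files were seen, because the planned mean signal is not among their columns. With the replicate number as a block, adjusted p in the set was 0.565 to 0.916 and no call changed. The 8 genes kept their direction in 137 of 144 values, 4 of them throughout. These values are not separate checks of direction. The filters on dim probes, the variance model and the replicate block left the differences of the 8 genes unchanged. The fit within slide 1 was the same as that without treated replicate 3. With every probe as its own row, the median over the probes of a gene was counted, although the second Egf probe gave -0.03. Umod was -0.0225 with quantile scaling and Slc12a3 was 0.18 within row 1. Leaving out 1 array at a time gave -0.0561 to 0.23 for Slc12a1, -0.0204 to 0.39 for Cldn16 and -0.14 to 0.0343 for Slc12a3, a thick limb median of -0.0382 to 0.17, and 0 to 2 genes whose groups did not overlap. That count was 1 with median scaling (Kcnj1), 1 with no filter (Pvalb, below background), 2 within slide 1 (Slc12a3 and Kcnj1) and 3 within row 1 (Egf, Slc12a3 and Casr), where 1 treated array is set against 3. The share of all rows without overlap was not counted under these alternatives. Groups of fewer arrays also separate more readily, so these counts are not read as changes in the genes. Among other genes, Kcnma1 was -0.12 within slide 1, with -0.12 to 0.45 over arrays left out, Kcnj10 was 0.022 with normexp and -0.33 to 0.03 over arrays left out, and Slc41a3 was -0.0738 within row 1. The cause of these changes was not tested. Over all rows 24 passed, against 1 with the replicate block, 2 with no filter, 14 with the mean over probes, 9 within slide 1, 0 within row 1 (6627 at an unadjusted p under 0.05 in limma), 85 with normexp, 316 with a trended robust variance, 0 to 9 with 1 array left out, and 19 to 33 under the other settings. Median scaling moved the median of all rows from 0.01 to -0.04. Pvalb had no signal well above background, which limits what can be said of it.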
